A study of Mus musculus with 16 samples.

Results

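The genes described here are the cytochrome P450 (Cyp) genes of families 1 to 4 that were detected in DEN-treated mouse livers and liver tumours. A gene was taken when its symbol was Cyp followed by a family number from 1 to 4, a subfamily letter and a gene number, and when its normalised count was at least 10 in at least 2 of 16 libraries. Of 74 matching symbols 57 met the level rule, among 14836 of 47069 gene IDs that met it. The 57 genes were 13 of subfamily Cyp2c, 7 of Cyp3a, 6 each of Cyp2d and Cyp4f, 4 each of Cyp2a and Cyp4a, 3 each of Cyp2b and Cyp2j, 2 of Cyp1a, and 1 each of Cyp1b, Cyp2e, Cyp2f, Cyp2g, Cyp2r, Cyp2s, Cyp2u, Cyp4b and Cyp4v. Of the 17 symbols below the rule, 11 had a second-highest value of 0. The nearest on either side of the limit were Cyp3a57 inside, with a second-highest value of 10.9, and Cyp2j8 outside, with 6.15. A further 7 symbols with an extra letter or suffix, such as Cyp4a12a, were not matched by the pattern.

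Bulk poly(A) RNA was sequenced from liver tissue at 5 and 9 months of age and from liver tumours at 9 months, after either a high-fructose diet or a cornstarch diet. Every sample is labelled as treated with DEN (diethylnitrosamine, a liver carcinogen that P450 enzymes activate), so there was no group without the carcinogen. The series' design text also names a MUP-uPA mouse model, which none of the sample labels mentions. The groups were fructose liver at 5 months (2 libraries), cornstarch liver at 5 months (3), fructose liver at 9 months (3), cornstarch liver at 9 months (3), fructose tumour at 9 months (3) and cornstarch tumour at 9 months (2). Strain, DEN dose and the length of feeding are not given in the sources used here, and the labels do not say whether libraries came from separate mice or whether tumours and livers shared mice, so p-values measure the spread between these libraries only.

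Libraries held 11232461 to 38377674 reads. The hepatocyte markers Alb, Apoa1, Ttr, Serpina1c and Fgb were abundant in all 16, with sums of 1159560 or more. Among them 2 liver libraries of 5 months, replicate 1 of each diet, carried Xist at 12936 (fructose) and 10883 (cornstarch) with a summed Y-linked value of 0 and 1.91, and the other 14 libraries carried Y-linked transcripts. Many P450 genes of rodent liver are sex-biased, so the diet comparison in 5-month liver was also fitted without these 2 libraries. That fit leaves replicate 2 as the only fructose liver of 5 months.

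P450 enzymes are haem proteins of the endoplasmic reticulum that insert an oxygen atom into drugs, toxins, steroids, bile acids and fatty acids, with electrons passed on by the reductase encoded by Por. In the liver many of them lie in hepatocytes around the central vein, where Wnt signalling is active, while Cyp2f2 marks hepatocytes around the portal tract. Several families are induced through nuclear receptors: Cyp1 genes through the aryl hydrocarbon receptor AHR, Cyp2b and Cyp2c genes through CAR, Cyp3a11 through PXR and Cyp4a genes through PPAR-alpha. The pattern of growth hormone pulses sets which members are high in males or in females, and inflammation is known to lower many of them.

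The 57 genes together took from 0.53% of reads (fructose tumour replicate 2) to 2.73% (fructose liver at 9 months, replicate 1). Per kilobase of exon, averaged over the 16 libraries, Cyp2e1, the ethanol-oxidising P450 (chromosome 7, 140763739 to 140774987, GRCm38), stood first with a normalised count of 49549. It was followed by Cyp2a4 at 13032, Cyp2a5 at 9869, Cyp2d26 at 8496, Cyp2d10 at 5363, Cyp4a10 at 5086 and Cyp4a14 at 4961. The place of Cyp2a4 came from the tumours, with group means per kilobase of 20184 and 50625 there and 1677 to 6867 in the liver groups. The highest members of other subfamilies on the same scale were Cyp2f2 (3196), Cyp2j5 (2832), Cyp2c70 (3489), Cyp3a25 (2588), Cyp1a2 (2264), Cyp4v3 (1262), Cyp2b9 (1217) and Cyp4f14 (1044). Cyp4b1 (141), the vitamin D 25-hydroxylase gene Cyp2r1 (73.6), Cyp2u1 (35.6), the olfactory gene Cyp2g1 (17.1), Cyp1b1 (3.56) and Cyp2s1 (1.99) were far lower, and Cyp2d12 (1.79) was last.

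The make-up of this pool differed between livers and tumours. Cyp2e1 made up 31.8% to 49.3% of the per-kilobase P450 signal in the 11 liver libraries and 5.69% to 30.2% in the 5 tumours, so the ranges did not overlap. Cyp2a4 made up 0.261% to 10.0% in the livers and 12.1% to 49.1% in the tumours, again without overlap. As a percent of all reads, which the stacked plot by subfamily shows, both the Cyp2e and the Cyp2a ranges of livers and tumours overlapped.

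**Figure D1:**
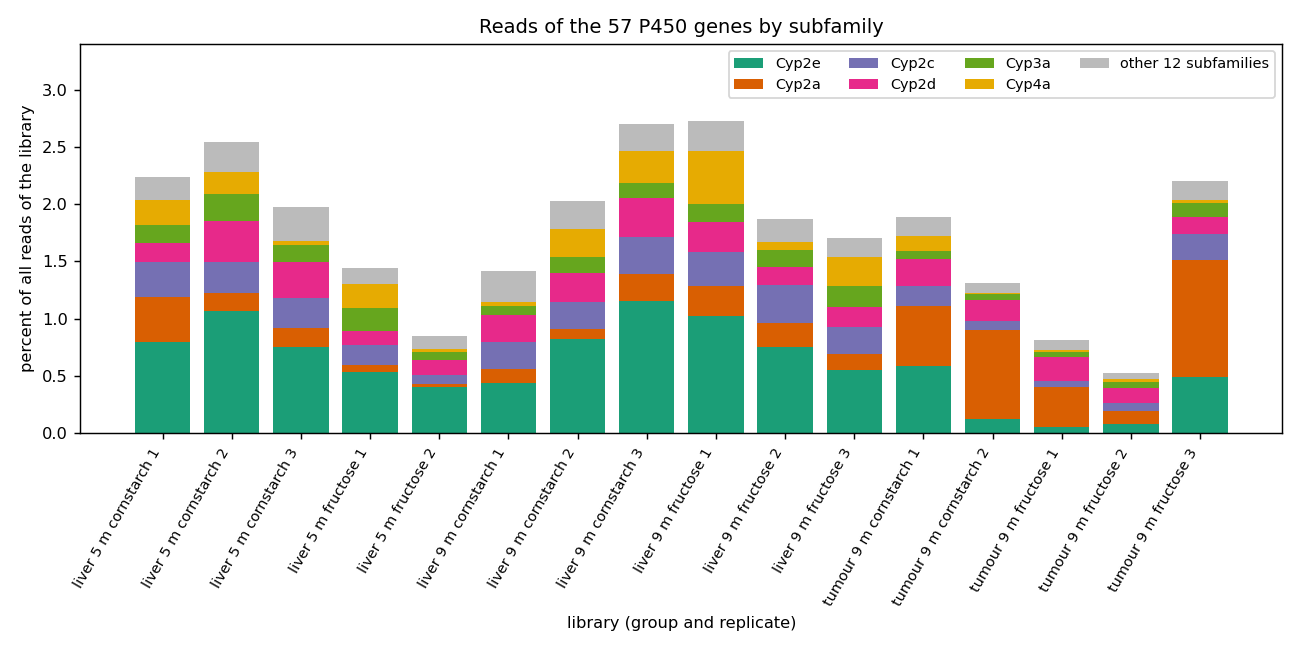
Percent of all reads of each library (y axis) that fell on the 57 P450 genes, stacked by subfamily, for 16 libraries (x axis, group and replicate). The Cyp2e layer runs from 0.0492% to 0.582% of reads in tumours and from 0.405% to 1.15% in livers, the Cyp2a layer from 0.111% to 1.02% and from 0.0222% to 0.393%, and the totals run from 0.53% to 2.73%.

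Members differed widely in how steady they were between libraries of 1 group. The pooled within-group SD of log2(value + 1) was lowest for Cyp2d22 (0.16), Cyp4f13 (0.22) and Cyp2d10 (0.25). It was highest for Cyp2c69 (3.96), Cyp3a16 (3.25), Cyp3a44 (3.10) and Cyp2c40 (2.80). All 4 of the variable genes are on the female-biased list.

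The first comparison asked how tumours differed from liver tissue at 9 months, averaged over the diets. P450 genes were mostly lower in tumours: limma called 22 members lower and 7 higher of 56 tested, against 23.8% of all 14503 genes tested that were called (13.4% higher, 10.5% lower). For 11 members all 6 livers lay apart from all 5 tumours, against 13% of all genes. The median log2 difference was -0.84 over the members and -0.01 over all genes tested. Of the subfamilies, Cyp2c had 6 of 13 members lower and none higher, and its negative signs numbered 12. In bulk tissue fewer cells of a type and less RNA per cell cannot be told apart. Summed hepatocyte markers stood at 1398610 to 4250470 in tumours and 1159560 to 1904300 in 9-month livers. The summed stellate and matrix markers (4 of 6 higher) were 3134 to 5761 in tumours and 1088 to 4707 in livers, and the tumour markers Afp, Gpc3, H19 and Igf2 (2 of 4 higher) summed to 4551 to 53199 and 149 to 3002. Their part in the P450 differences was not tested.

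Cyp4a14 and Cyp4a10 of subfamily Cyp4a, fatty acid omega-hydroxylase genes and targets of PPAR-alpha, fell furthest. Cyp4a14 (chromosome 4, 115486200 to 115496142) stood at 2299, 19326 and 27747 in cornstarch livers, 43178, 4989 and 24924 in fructose livers, 13254 and 227 in cornstarch tumours and 923, 116 and 1263 in fructose tumours. Cornstarch liver replicate 1 and fructose liver replicate 2 were low and cornstarch tumour replicate 1 was high, so livers and tumours overlapped. The other tumours, at most 1263, lay below every liver. Cyp4a14 fell 14.5-fold (log2 -3.86, SE 1.15, limma adjusted p = 0.0348) and Cyp4a10 fell 8.91-fold (log2 -3.16, SE 0.78, limma adjusted p = 0.0163). Cyp4a10 stood at 8217 and 342 in cornstarch tumours and 888, 2059 and 1575 in fructose tumours, against 4779 to 29161 in the livers. Both calls were lost without cornstarch tumour replicate 2, where the log2 differences were -2.39 (limma adjusted p = 0.172) and -2.01 (limma adjusted p = 0.0618). Without cornstarch tumour replicate 1 they were -5.32 and -4.30. The Cyp4a14 call was lost in 6 of the 11 fits with 1 library left out and with edgeR, and the Cyp4a10 call in 1 of those fits. Cyp4a32 also fell (log2 -1.66, SE 0.47, limma adjusted p = 0.0277), a call lost in 6 of those 11 fits. Cyp4a31 went the other way and rose (log2 1.70, SE 0.51, limma adjusted p = 0.0348), at 855 and 1335 and 1950.2, 2255 and 1234 in cornstarch and fructose tumours against 182, 672 and 623 and 652, 132 and 851 in the livers. The Cyp4a31 call was lost in 5 of the 11 fits. The Cyp4a10, Cyp4a31 and Cyp4a32 coding sequences share 96.01% to 97.18% of bases, so the split of reads between them is uncertain.

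Of the 8 pericentral P450 genes 5 were lower in tumours (edgeR called 2 and DESeq2 3), and so was the periportal gene Cyp2f2. Cyp2f2, which metabolises naphthalene (chromosome 7, 27119909 to 27133660), stood at 16669.8, 8980.2 and 8687 in cornstarch livers and 10547, 4777 and 5692 in fructose livers, against 4901 and 1209.8 in cornstarch tumours and 593, 525 and 522 in fructose tumours. The fructose tumours lay close together and below every other library, and cornstarch tumour replicate 1 reached the lower livers. It fell 7.35-fold (log2 -2.88, SE 0.36, limma adjusted p = 0.000598). Cyp2e1 stood at 80616, 141682 and 206880.0 and 162351, 124179 and 95904 in the livers of cornstarch and fructose and at 101800.0 and 25154 and 7711, 15099 and 76033 in the tumours. It fell 3.98-fold (log2 -1.99, SE 0.61, limma adjusted p = 0.0379), with overlap, and the call was lost in 8 of the 11 fits with 1 library left out, with edgeR and without the low-value filter. The highest adjusted p was 0.189, without cornstarch tumour replicate 2. Cyp2c29, a CAR-induced gene, stood at 9406 to 11926 in the 6 livers and at 4971 and 1927 and 429, 702 and 3807 in cornstarch and fructose tumours, with no overlap, and fell 5.75-fold (log2 -2.52, SE 0.49, limma adjusted p = 0.00519). Its neighbours of the Cyp2c cluster also fell, Cyp2c54 7.76-fold, Cyp2c50 6.24-fold and Cyp2c37 5.92-fold, with limma adjusted p of 0.0375, 0.00777 and 0.0349. Cyp2c54 lost its call in 7 of the 11 fits with 1 library left out and Cyp2c37 in 8, with log2 -2.12 and -1.75 without cornstarch tumour replicate 2. Cyp2c29 kept its call in those fits but lost it with DESeq2.

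Fructose tumour replicate 3 was the highest fructose tumour for each of the pericentral genes, including those that passed. The summed pericentral genes were 206458 there and 21188 and 22389 in the other fructose tumours. Cyp1a2, which hydroxylates caffeine and aromatic amines (chromosome 9, 57676937 to 57683703), was at 339, 388 and 13313 in fructose tumours and 4793 and 1455 in cornstarch tumours, against 7700.1, 3300.1 and 1846 and 4467, 4873 and 8490.3 in the livers of the same diets. Replicate 3 was above every liver and the other fructose tumours were below every liver. With all tumours Cyp1a2 did not pass (log2 -1.34, SE 0.89, limma adjusted p = 0.306), and without that library the log2 difference was -2.21 (limma adjusted p = 0.00556). Cyp2a5, the coumarin 7-hydroxylase, was at 9416, 3179 and 95973 in fructose tumours and 23495 and 35156 in cornstarch tumours. The same library was the highest tumour for Cyp1a1 (103), Cyp2c55 (286), Cyp2g1 (225) and Cyp2c69 (6077), yet the lowest for Cyp2f2. Without it limma called 36 members, among them all 29 of the full comparison.

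**Figure D2:**
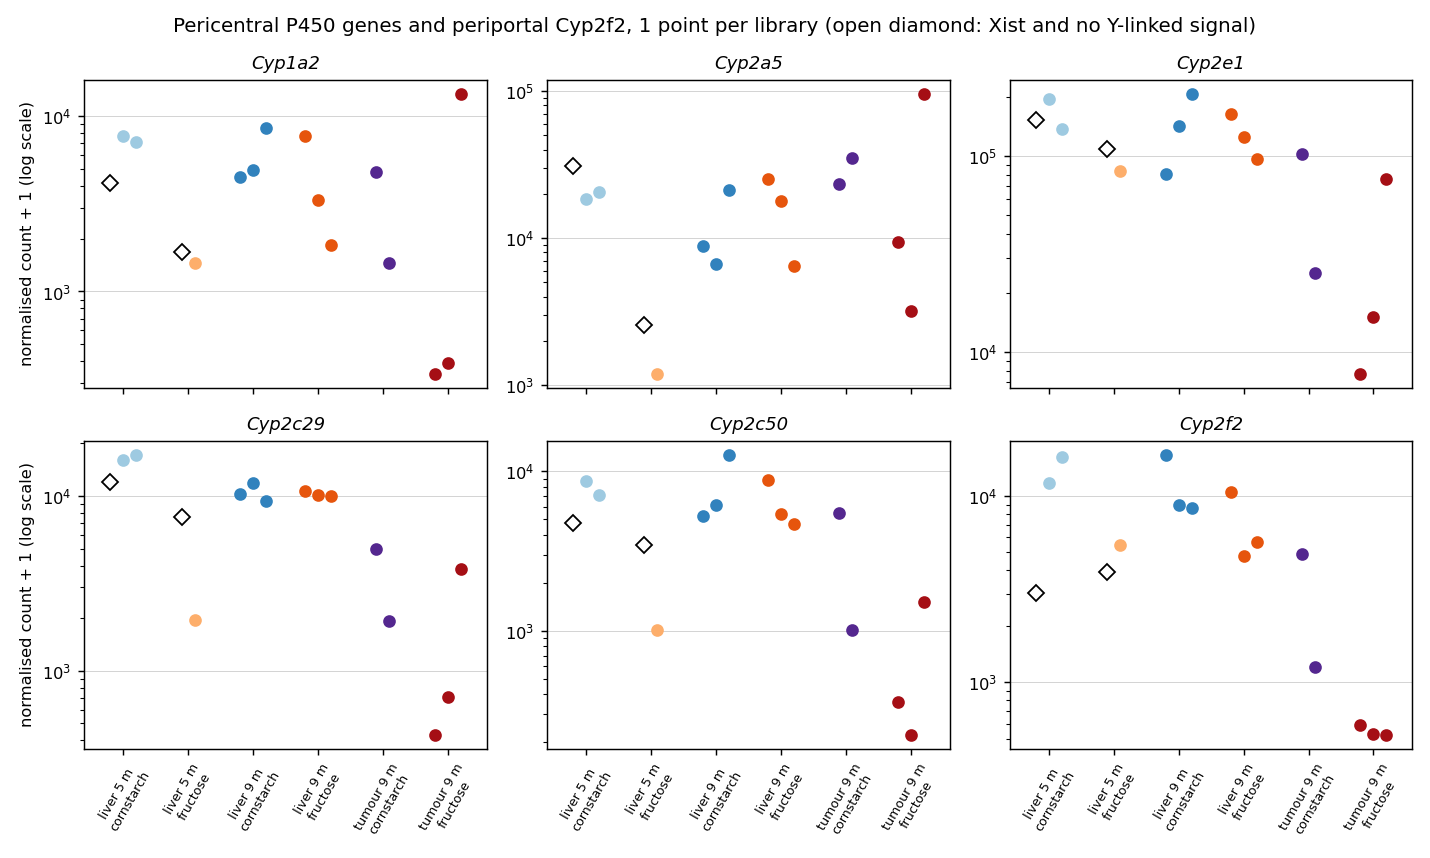
Normalised count plus 1 (log axis) of 5 pericentral P450 genes and periportal Cyp2f2 in each library, by group. Open diamonds mark the 2 livers of 5 months that carried Xist but lacked Y-linked signal. Fructose tumour replicate 3 lies far above the other fructose tumours for Cyp1a2 and Cyp2a5 and level with them for Cyp2f2, and both fructose livers of 5 months lie lowest among livers for Cyp1a2 and Cyp2a5.

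Of the Cyp2j subfamily 2 of 3 members fell in tumours and of Cyp4f 3 of 6, while 2 of Cyp4f rose. Cyp2j5, an arachidonic acid epoxygenase, fell 5.14-fold (log2 -2.36, SE 0.41, limma adjusted p = 0.00293), from 7079 to 10975 in the livers to 4904 and 1482 and 747, 663 and 2896 in cornstarch and fructose tumours, with no overlap. Cyp2c23 fell 3.50-fold and Cyp2j9 3.27-fold. Of the leukotriene omega-hydroxylase subfamily Cyp4f, Cyp4f14 fell 3.32-fold, Cyp4f15 2.46-fold and Cyp4f17 1.72-fold. Cyp2u1, a long-chain fatty acid hydroxylase, was at 42.6, 18.6 and 8.70 in fructose tumours, 243 and 199.5 in cornstarch tumours and 101 to 744 in the livers, and fell 3.57-fold (log2 -1.84, SE 0.37, limma adjusted p = 0.00634). Cyp4v3 and Cyp2d22 fell 1.74-fold and 1.69-fold, Cyp2d40 2.68-fold, Cyp2c67 2.57-fold, and in subfamily Cyp3a, Cyp3a25 fell 3.51-fold and Cyp3a13 1.63-fold.

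The 7 members that rose in tumours came from subfamilies Cyp2a, Cyp2s, Cyp3a, Cyp4a and Cyp4f. Cyp2a4, a testosterone 15-alpha-hydroxylase gene that is female-biased (chromosome 7, 26307169 to 26315088), stood at 6388, 844 and 9437 in cornstarch livers and 4239.7, 9465 and 9177 in fructose livers, against 58532 and 117439 in cornstarch tumours and 36445, 9375 and 59420.3 in fructose tumours. Fructose tumour replicate 2 was level with the higher livers and the other 4 tumours were above all 6. It rose 9.23-fold (log2 3.21, SE 0.67, limma adjusted p = 0.00753). Cyp4f16 (chromosome 17, 32536558 to 32551798) had the smallest adjusted p of the members, rising 3.94-fold (log2 1.98, SE 0.20, limma adjusted p = 0.000235) from 36.9 to 97.4 in the livers to 177 and 239.6 and 196, 295 and 235 in the tumours of cornstarch and fructose, with no overlap. Cyp3a16, known from fetal and female liver, rose from 0 in all cornstarch livers and 3.12, 28.0 and 5.44 in fructose livers to 10.1 and 4.55 and 13.0, 84.1 and 420.2 in cornstarch and fructose tumours (log2 3.05, SE 0.82, limma adjusted p = 0.0227). Cyp3a57 (log2 2.78, SE 0.50, limma adjusted p = 0.00375) and Cyp2s1 (log2 2.27, SE 0.59, limma adjusted p = 0.0191), an enzyme of epithelia outside the liver, rose at values of at most 14.8 and 42.1. Cyp3a57 reached 10 in tumours only (at most 4.16 in any liver), so the level rule took it through the group where it is high. Its calls as higher in tumours are therefore no independent evidence. Among 9-month livers, Cyp2s1 and Cyp3a16 reached 10 only in fructose replicate 2 (20.2 and 28.0). Cyp4f18, expressed in myeloid cells, rose 2.47-fold. The Cyp4f18 call was lost in 5 of the 11 fits with 1 library left out and with quantile normalisation. The summed macrophage markers were 2864 to 7292 in tumours and 2269 to 12186 in 9-month livers. The summed neutrophil markers were 71.1 to 164 and 34.5 to 217. Their part in the rise was not tested.

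Of the 29 calls 15 were kept whichever 1 of the 11 libraries was left out: Cyp2a4, Cyp2c23, Cyp2c29, Cyp2c50, Cyp2d22, Cyp2d40, Cyp2f2, Cyp2j5, Cyp2u1, Cyp3a25, Cyp3a57, Cyp4f14, Cyp4f15, Cyp4f16 and Cyp4f17. Without cornstarch tumour replicate 2, 17 members were called. The 27 tested members that did not pass were Cyp1a1, Cyp1a2, Cyp1b1, Cyp2a5, Cyp2a12, Cyp2a22, all of Cyp2b, Cyp2c38, Cyp2c39, Cyp2c40, Cyp2c55, Cyp2c68, Cyp2c69, Cyp2c70, Cyp2d9, Cyp2d10, Cyp2d26, Cyp2g1, Cyp2j6, Cyp2r1, Cyp3a11, Cyp3a44, Cyp3a59, Cyp4b1 and Cyp4f13, and Cyp2d12 was not tested at 9 months. Within the fructose diet 16 members passed (2 higher, 14 lower, against 10.2% of all genes, 5.75% higher and 4.46% lower) and within the cornstarch diet 7 (4 higher, 3 lower, against 5.71%, 4.82% higher and 0.889% lower). Tumours and livers did not overlap for 32 members under fructose, against 34% of all genes, and for 26 under cornstarch, against 40.5%. Cyp2f2, Cyp4f15 and Cyp2d22 were lower and Cyp4f16 and Cyp3a57 higher in both, though the level rule took Cyp3a57 through its tumour values. The test of the difference between diets is given with the interactions.

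**Figure D3:**
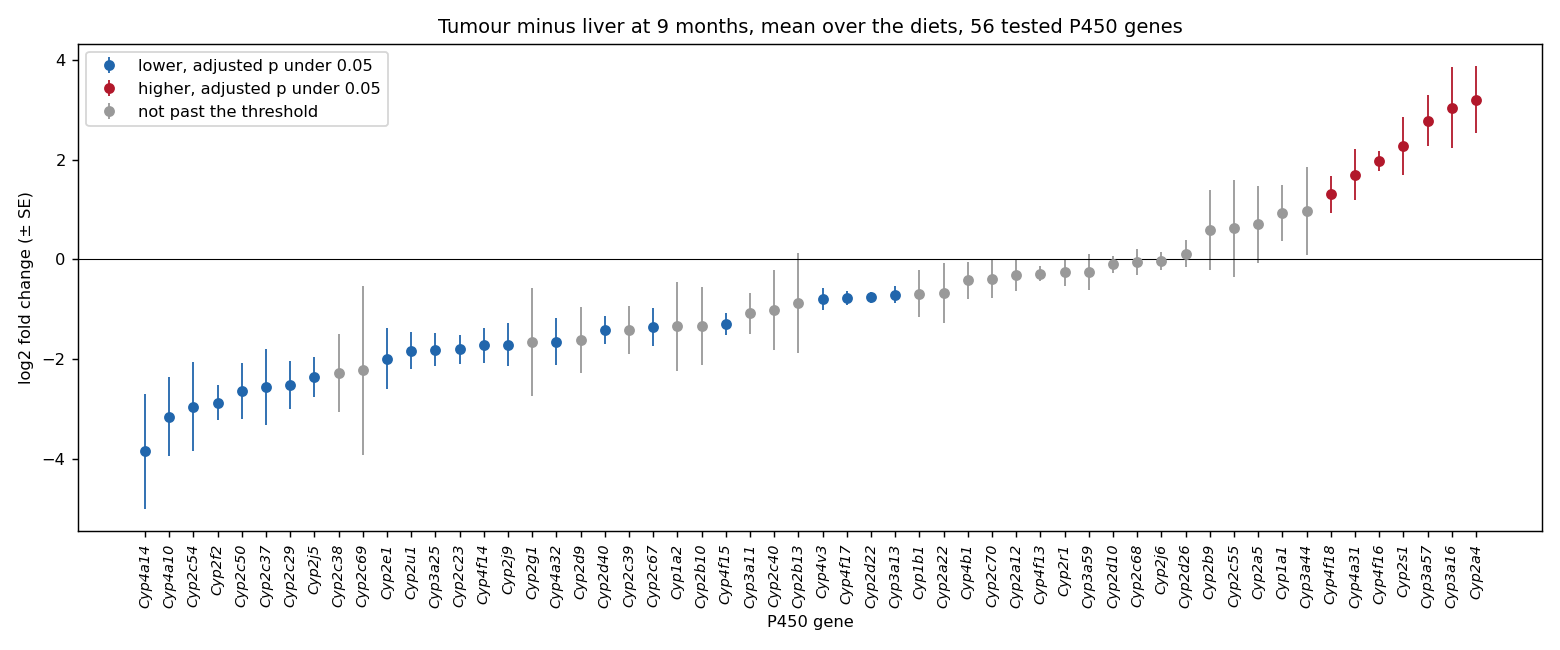
Log2 fold change, tumour minus liver at 9 months (y axis, bars are SE of the limma fit over 11 libraries), of the 56 tested P450 genes in order of size (x axis). Cyp4a14 and Cyp4a10 lie lowest and Cyp3a16 and Cyp2a4 highest, and 22 genes pass as lower against 7 as higher.

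The next comparison asked what the fructose diet did to liver at 5 months. Limma called 11 members lower and 3 higher of 56 tested, against 14.8% of all 14317 genes tested (10.3% higher, 4.48% lower). The diets did not overlap for 25 members, against 51.8% of all genes, so that count was no higher than the background. The median log2 difference was -0.54 over the members and -0.01 over all genes tested. Of the 8 pericentral members 5 fell and all 8 had a negative sign. The periportal gene Cyp2f2 did not pass, at 3909 and 5473 under fructose and 3033, 11705 and 16319 under cornstarch (log2 -0.85, SE 0.62, limma adjusted p = 0.4).

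Cyp2a5 fell furthest. Its values were 2561 and 1196 under fructose against 30738, 18369 and 20630.5 under cornstarch, with no overlap, a 12.9-fold difference (log2 -3.69, SE 0.61, limma adjusted p = 0.00335). Its 98.45% coding identity with Cyp2a4 leaves the split of their reads uncertain. Cyp2a4 did not pass, at 5456 and 374 and 33873, 907 and 1027, where replicate 1 of each diet, the libraries with Xist, were the high ones. Between those 2 libraries Cyp2a5 was 2561 under fructose and 30738 under cornstarch, and among the 3 with Y-linked transcripts 1196 against 18369 and 20630.

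Among the CAR-responsive Cyp2c genes, Cyp2c37 stood at 823 and 244 under fructose and 7221, 4217 and 2575 under cornstarch and fell 9.52-fold (log2 -3.25, SE 0.65, limma adjusted p = 0.00857). Cyp2c29, at 7613 and 1959 against 12096, 15959 and 17199, fell 3.86-fold (log2 -1.95, SE 0.43, limma adjusted p = 0.0134), and fructose replicate 2 was the lower library for both genes. Without the 2 libraries with Xist the log2 difference of Cyp2c29 was -3.08, and without fructose replicate 2 it was -0.97. Cyp2c50, at 3467 and 1014 against 4750.3, 8729 and 7124, fell 3.55-fold (log2 -1.83, SE 0.53, limma adjusted p = 0.0418), with log2 -2.96 without the Xist libraries and -0.94 without fructose replicate 2. Cyp1a2, an AHR target, was at 1684 and 1459 against 4148, 7612 and 7053 and fell 3.87-fold (log2 -1.95, SE 0.51, limma adjusted p = 0.0277), and without the Xist libraries the adjusted p was 0.0774. Cyp3a11, the main PXR-induced Cyp3a gene, was at 19798 and 2624 against 12169, 29211 and 16903 and did not pass (log2 -1.33, SE 0.67, limma adjusted p = 0.217). Without the Xist libraries, which leaves fructose replicate 2 alone, its log2 difference was -3.08. Without fructose replicate 2, which leaves replicate 1 alone, it was 0.12.

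The other 6 members that fell did so by smaller steps. Cyp2c23 fell 2.69-fold, Cyp4v3 2.65-fold, Cyp2a12 2.37-fold, Cyp2d22 1.87-fold, Cyp2d10 1.76-fold and Cyp4f13 1.60-fold. Cyp2e1 was at 108138 and 83401 against 151142, 193476 and 137257, without overlap, and did not pass (log2 -0.74, SE 0.45, limma adjusted p = 0.303). The 4 PPAR-alpha-responsive genes had 0 calls in limma, edgeR and DESeq2 and none with an unadjusted p under 0.05, with Cyp4a14 at 24817 and 2794 against 24022, 14983 and 1609.9.

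The 3 members that rose were Cyp4f18, Cyp4f16 and Cyp3a13. Cyp4f18 was at 65.6 and 86.8 under fructose and 11.5, 10.3 and 9.32 under cornstarch, a 6.76-fold rise (log2 2.76, SE 0.45, limma adjusted p = 0.00327). Cyp4f16, at 119.6 and 185 against 60.1, 28.8 and 26.6, rose 4.06-fold (log2 2.02, SE 0.39, limma adjusted p = 0.00704). Cyp3a13, a Cyp3a gene also known from intestine, rose from 5913, 3862 and 3593 to 10959 and 8132 (log2 1.12, SE 0.26, limma adjusted p = 0.0179). Without the 2 Xist libraries Cyp3a13 did not pass (log2 1.13, limma adjusted p = 0.0528).

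Markers of other cells and of inflammation moved in the same libraries. The summed neutrophil markers (7 of 7 higher) were 21088 and 23484 under fructose and 7.19 to 84.9 under cornstarch. The summed acute-phase genes (Saa1, Saa2, Orm2, Lcn2 and Hp, 5 of 5 higher) were 659726 and 1104710 against 45438 to 77234. The macrophage sum was 12064 and 13351 against 5113 to 8489, with 2 of 6 markers higher, and the stellate and matrix sum 4103 and 4245 against 807 to 1118, with 4 of 6 higher. The part of these in the P450 differences was not tested. Every one of the 14 calls was lost without fructose replicate 2, which leaves 1 fructose library that is assumed to vary like the other groups. There the difference was log2 -3.15 for Cyp2a5 (limma adjusted p = 0.0564) and log2 2.56 for Cyp4f18 (limma adjusted p = 0.0606). Without fructose replicate 1, which also leaves 1, limma called 11 members, of which 9 were among the 14. Without cornstarch replicate 2 or replicate 3, 7 members were called, and without the 2 Xist libraries 11, of which 10 were among the 14. The 4 that lost their call without the Xist libraries were Cyp1a2, Cyp2d10 (limma adjusted p = 0.0935), Cyp3a13 and Cyp4f13 (limma adjusted p = 0.205), and Cyp3a11 gained one.

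In liver at 9 months limma called 2 members, both higher, of 56 tested, against 2.54% of all genes (2.32% higher, 0.217% lower). The diets did not overlap for 19 members, against 23.6% of all genes. Cyp1b1, an AHR-responsive enzyme best known outside hepatocytes (chromosome 17, 79701537 to 79715061), was at 49.9, 39.2 and 31.7 under fructose and 11.6, 10.8 and 9.53 under cornstarch, a 3.50-fold difference (log2 1.81, SE 0.34, limma adjusted p = 0.0297). Cyp4f18 was at 17.7, 12.3 and 27.2 against 1.93, 1.54 and 4.76, a 5.47-fold difference (log2 2.45, SE 0.40, limma adjusted p = 0.0243). Neither gene overlapped between diets. The summed macrophage markers were 9427 to 12186 under fructose and 2269 to 5281 under cornstarch (5 of 6 higher), and the summed stellate and matrix markers 2976 to 4707 and 1088 to 1236 (5 of 6 higher), and their part in the 2 rises was not tested. Both calls were lost without any 1 of the fructose libraries, when the 2 groups were fitted alone and without the 2 Xist libraries of 5 months. The call of Cyp1b1 was also lost without cornstarch replicate 3 or either fructose liver of 5 months, and without cornstarch replicate 1 there were 3 calls.

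The 8 pericentral genes had 0 calls at 9 months in limma, edgeR and DESeq2 and none with an unadjusted p under 0.05, and 5 signs were negative. Cyp2a5 was at 25413, 17793 and 6476 under fructose and 8854, 6669 and 21413 under cornstarch (log2 0.40, SE 0.55, limma adjusted p = 0.715), and Cyp2c37 at 4230.3, 4727 and 4089.5 against 1507, 2233 and 6917 (log2 0.60, SE 0.58, limma adjusted p = 0.597). The plot of both diet comparisons shows these 2 genes at the left end for 5 months and near 0 for 9 months.

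**Figure D4:**
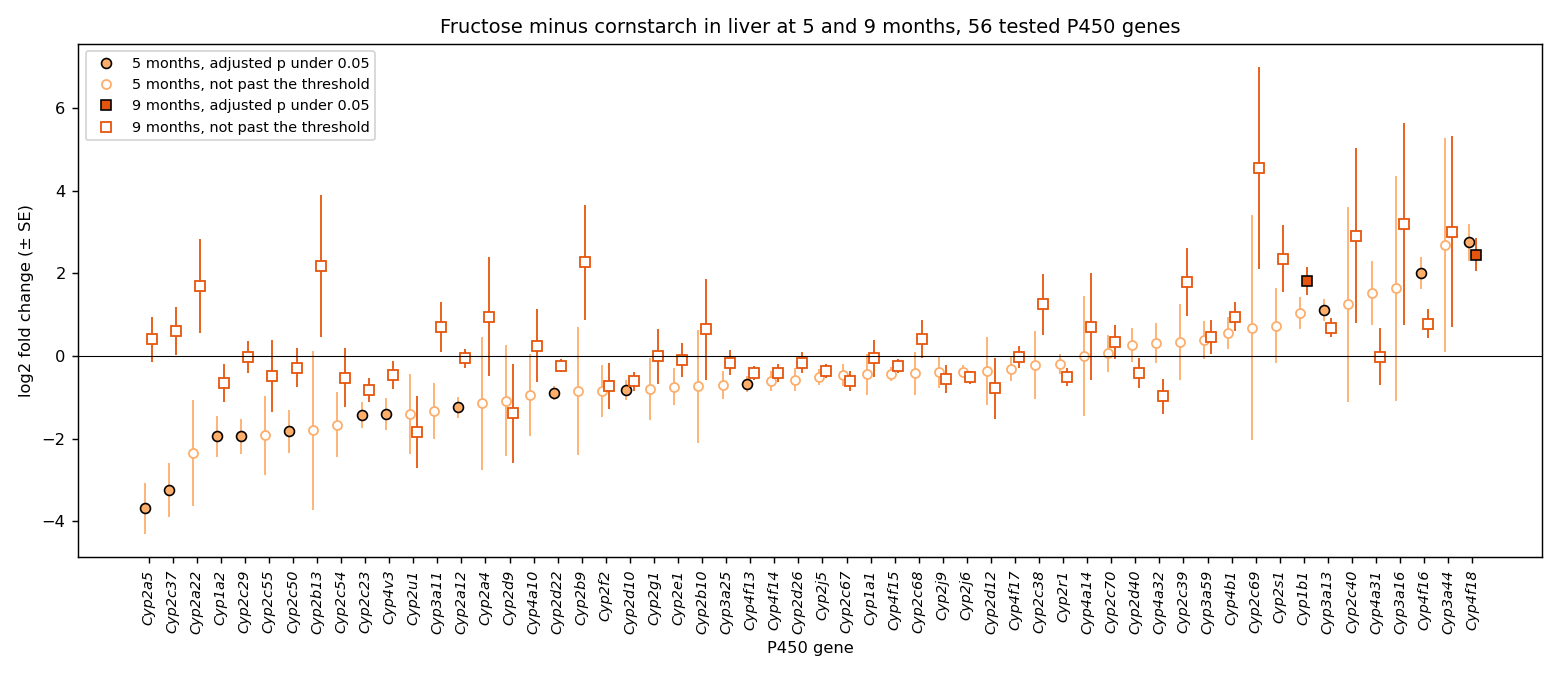
Log2 fold change, fructose minus cornstarch in liver (y axis, bars are SE of the limma fit over 11 liver libraries), at 5 months (circles) and 9 months (squares) for the 56 tested P450 genes in order of the 5-month value (x axis). Filled symbols passed an adjusted p under 0.05: 14 genes at 5 months and 2 at 9 months.

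Sex-biased P450 genes differed between the libraries of 1 diet group at 9 months. Of 10 female-biased members 9 had a positive sign under fructose (median log2 2.22) and of 4 male-biased genes all had a negative sign (median log2 -1.80). Limma called 0 of the 14, none had an unadjusted p under 0.05, and edgeR and DESeq2 called 0. The male-biased Cyp4a12a, which is outside the symbol pattern, was at 5093, 324 and 294 under fructose and 4549, 5459.7 and 5022 under cornstarch. Fructose replicate 1 was level with the cornstarch livers and the others were far below them. Cyp2d9, the male-biased testosterone 16-alpha-hydroxylase, was at 11308, 4170.2 and 6168 under fructose and 15049.8, 18280.0 and 19016 under cornstarch, with no overlap (log2 -1.39, SE 1.20, limma adjusted p = 0.55).

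Among the 10 female-biased members, fructose replicates 2 and 3 were both above every cornstarch liver for 7, and not for Cyp2a4, Cyp2b10 and Cyp2g1. Cyp2c69 was at 224, 3683 and 2117 under fructose and 42.4, 12.3 and 233 under cornstarch (log2 4.55, SE 2.44, limma adjusted p = 0.324). Cyp2c40 was at 289, 3436 and 1447 and 246, 46.1 and 291, and Cyp2b9 at 1426, 4066 and 2404 and 569, 211 and 1036. In each of these genes fructose replicates 2 and 3 were above every cornstarch liver, and for Cyp2c69 and Cyp2c40 replicate 1 lay within the cornstarch range. Cux2, a female-biased regulator of sex-biased liver genes, was at 12.5, 1150.0 and 313 under fructose and 5.79, 4.61 and 16.7 under cornstarch (log2 4.27, SE 1.77, limma adjusted p = 0.208). All 6 of these livers carried Y-linked transcripts, with sums of 2056 to 3031, and cornstarch replicate 3 also carried Xist at 226, against at most 25.8 in the others. In the cornstarch liver of 5 months with Xist, the same genes were at 4699 (Cyp2c69), 4402 (Cyp2c40), 7982 (Cyp2b9) and 1592 (Cux2). The fructose liver with Xist had Cyp2c69 at 1345, below 9-month fructose replicates 2 and 3, Cyp2c40 at 2755 and Cyp2b9 at 3844.

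A further 3 members of the female-biased list stayed far below the cornstarch liver with Xist in all 9-month livers. Cyp3a44 was at 11.4, 153 and 71.2 under fructose and 5.79, 1.54 and 14.3 under cornstarch, against 3006 in the cornstarch liver with Xist. Cyp3a16 was at 3.12, 28.0 and 5.44 under fructose against 1693, and Cyp2b13 at 148, 195 and 266 against 2333. The fructose liver with Xist had Cyp3a44 at 2201, Cyp3a16 at 394 and Cyp2b13 at 260, so for Cyp2b13 it was level with the highest 9-month fructose liver. In tumours the sex-biased genes were also uneven: Cyp2d9 was at 10542 and 6704 in cornstarch tumours and 2688, 237 and 4754 in fructose tumours, and Cyp4a12a at 2086 and 726 and 102, 12.1 and 224. Against 9-month liver, limma called 3 of the 4 male-biased genes lower in tumours (median log2 -2.602), edgeR 2 and DESeq2 2. Of the 10 female-biased members limma called 2 higher, and 6 signs were negative. Between the tumour diets all 4 male-biased genes were lower under fructose with an unadjusted p under 0.05 (median log2 -2.996). Limma, edgeR and DESeq2 called 0 of these 4 and 0 of the 10, of which 3 had such a p.

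**Figure D5:**
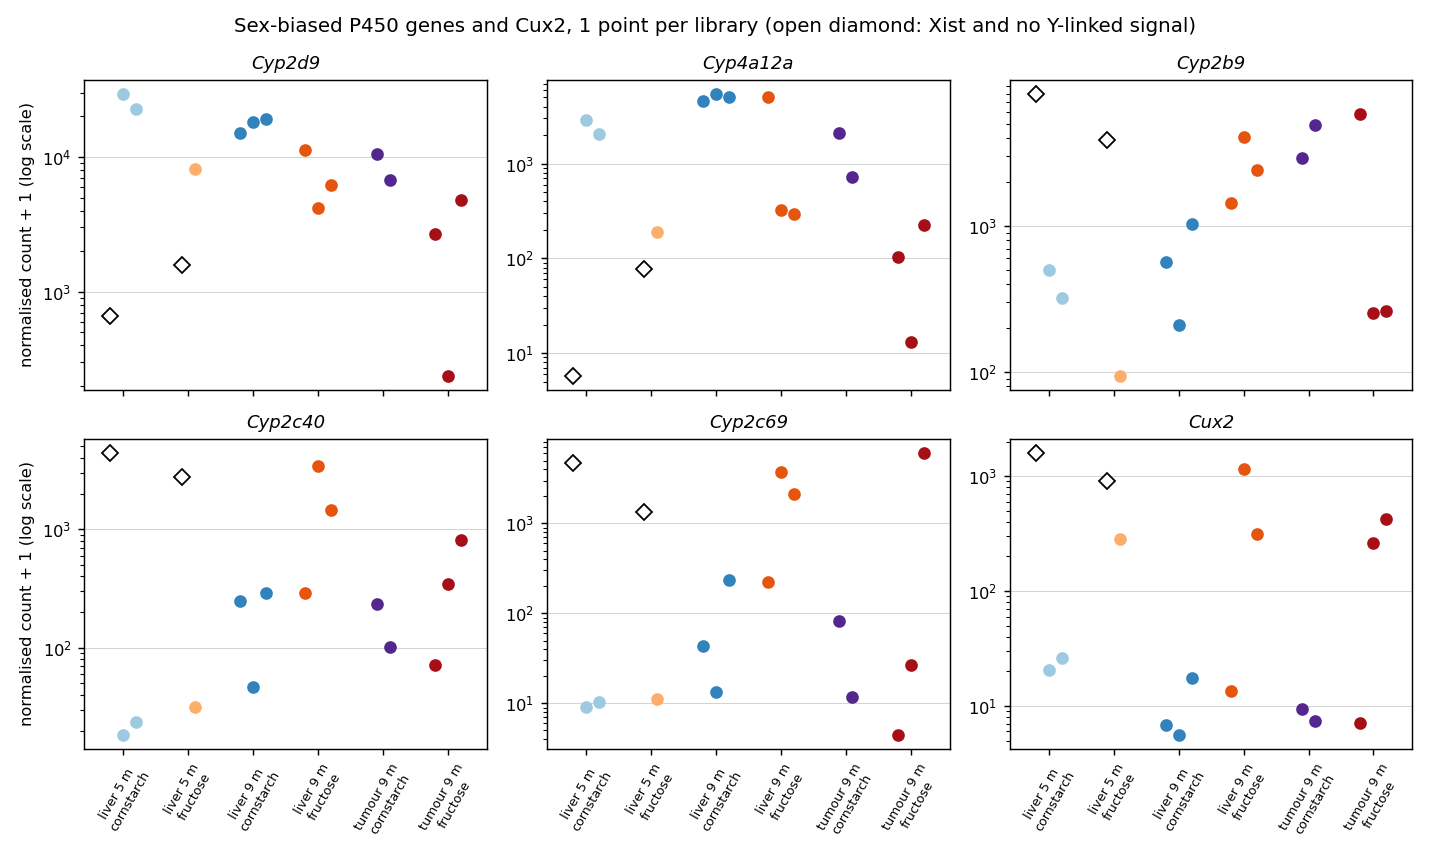
Normalised count plus 1 (log axis) of male-biased Cyp2d9 and Cyp4a12a, female-biased Cyp2b9, Cyp2c40 and Cyp2c69, and Cux2 in each library, by group. Open diamonds mark the 2 livers of 5 months that carried Xist but lacked Y-linked signal. In fructose livers of 9 months, replicates 2 and 3 lie below the cornstarch livers for Cyp4a12a and above them for Cyp2c69 and Cux2.

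Several sex-biased genes have close relatives in their subfamily, and the upstream sequences of 5 such pairs are shown because their members had different levels between libraries. RefSeq promoter sequences (GRCm38.p6) were matched to 47 of the 57 members, 52 promoters in all. The stretches run from 130 to 11 bases before the annotated start, 5′ to 3′ on the gene's strand, with capitals marking matches, on either strand, to TATAAA or to the HNF4-type motif CAAAGTCCA.
Cyp2a4 (chr7:26307062-26307181, plus strand): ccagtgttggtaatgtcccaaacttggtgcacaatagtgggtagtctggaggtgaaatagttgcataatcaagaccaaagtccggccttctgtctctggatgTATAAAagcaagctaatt
Cyp2a5 (chr7:26835209-26835328, plus strand): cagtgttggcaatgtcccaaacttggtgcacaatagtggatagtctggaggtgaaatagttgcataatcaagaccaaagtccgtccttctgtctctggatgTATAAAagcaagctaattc
Cyp2b9 (chr7:26173279-26173398, plus strand): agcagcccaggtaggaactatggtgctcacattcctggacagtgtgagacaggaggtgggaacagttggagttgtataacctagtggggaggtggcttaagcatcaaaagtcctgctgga
Cyp2b13 (chr7:26061365-26061484, plus strand): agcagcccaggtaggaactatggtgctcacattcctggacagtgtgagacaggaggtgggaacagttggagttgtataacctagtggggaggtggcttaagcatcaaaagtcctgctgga
Cyp2c68 (chr19:39741112-39741231, minus strand): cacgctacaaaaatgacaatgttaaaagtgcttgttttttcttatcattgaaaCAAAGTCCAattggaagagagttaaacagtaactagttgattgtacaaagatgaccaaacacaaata
Cyp2c69 (chr19:39886780-39886899, minus strand): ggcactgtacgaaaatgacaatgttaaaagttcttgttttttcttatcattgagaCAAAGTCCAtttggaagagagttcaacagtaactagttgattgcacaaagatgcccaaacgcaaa
Cyp2d9 (chr15:82452247-82452366, plus strand): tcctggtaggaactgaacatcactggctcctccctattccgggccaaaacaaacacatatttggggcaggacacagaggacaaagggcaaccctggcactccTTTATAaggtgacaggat
Cyp2d10 (chr15:82407205-82407324, minus strand): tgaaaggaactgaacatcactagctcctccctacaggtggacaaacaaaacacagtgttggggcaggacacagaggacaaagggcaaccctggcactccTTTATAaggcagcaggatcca
Cyp3a11 (chr5:145879865-145879984, minus strand): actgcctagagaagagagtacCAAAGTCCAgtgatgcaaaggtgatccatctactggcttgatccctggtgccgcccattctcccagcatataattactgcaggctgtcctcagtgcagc
Cyp3a16 (chr5:145469734-145469853, minus strand): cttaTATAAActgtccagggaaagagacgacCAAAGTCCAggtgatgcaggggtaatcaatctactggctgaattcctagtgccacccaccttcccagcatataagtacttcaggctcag

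Over the 250 bases before the start, the Cyp2b9 and Cyp2b13 sequences shared 99.2% of aligned bases and the stretches shown were identical. In cornstarch livers of 5 months Cyp2b9 was at 7982, 502 and 319.6 and Cyp2b13 at 2333, 31.8 and 29.3, both high in the library with Xist. Cyp2a4 and Cyp2a5 shared 97.61%, yet in the same livers Cyp2a4 was at 33873, 907 and 1027 and Cyp2a5 at 30738, 18369 and 20630.5. Cyp2c68 and Cyp2c69 shared 91.34%, both with the CAAAGTCCA match, and Cyp2c68 was at 6261, 2231 and 2421 while Cyp2c69 was at 4699, 8.22 and 9.32. Cyp2d9 and Cyp2d10 shared 82.28% and the TATAAA match, and were at 658, 29399.9 and 22524 and 8852, 12989 and 12384. Cyp3a11 and Cyp3a16 shared 76.25%, and were at 12169, 29211 and 16903 and 1693, 1.03 and 0. The 5 pairs were picked with their values known, so these levels are examples and test nothing about the promoters.

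Across all 52 promoters, CAAAGTCCA was found in 7 (13.5%), 5 of Cyp2c and 2 of Cyp3a, against 0.384% of 32851 RefSeq mouse promoters of the same length. These genes are related copies, so the 7 are not independent. TATAAA was in 40.4% against 12.4%, the HNF1 half-site GTTAAT in 15.4% against 6.43% and CCAAT in 44.2% against 33.8%. Shares count promoters and not genes: the overlapping promoters of Cyp4f14, and those of Cyp3a25, were counted separately and all held CCAAT. The AHR core GCGTG was in 15.4% against 28.2% and the STAT motif TTCNNNGAA in 3.85% against 7.02%. P450 promoters were poor in CG dinucleotides, with a median of 2 against 6, and 92.3% had 5 or fewer against 49.6%. Those with 15 or more were Cyp2r1, Cyp2s1 and Cyp4v3. A match describes the letters only.

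Within subfamilies 148 pairs of coding sequences were compared, and 25 pairs, involving 27 members, shared at least 90% of bases. The highest were Cyp2a4 with Cyp2a5 (98.45%), Cyp2c67 with Cyp2c69 (97.69%), Cyp3a25 with Cyp3a59 (97.48%) and Cyp4a10 with Cyp4a32 (97.18%). Levels of the single members of such pairs depend on how the estimated counts divided shared reads.

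Over both ages, with diets compared within each age, limma called 16 members (4 higher, 12 lower) of 56, against 21.4% of all genes (13.8% higher, 7.61% lower). All fructose livers lay apart from all cornstarch livers for Cyp1b1, Cyp2c23, Cyp2d10 and Cyp4f18, 4 of 56 members against 8.68% of all genes. That count was no higher than the background. Cyp4f18 rose 6.08-fold (log2 2.60, SE 0.30, limma adjusted p = 0.00048), Cyp1b1 2.69-fold, Cyp4f16 2.65-fold and Cyp3a13 1.87-fold. The largest falls were Cyp2a5 (log2 -1.65, SE 0.41, limma adjusted p = 0.0177), Cyp1a2 (log2 -1.30, SE 0.34, limma adjusted p = 0.0214), Cyp2c23 (log2 -1.13, SE 0.22, limma adjusted p = 0.00513), Cyp2c29, Cyp4v3 and Cyp2d10. Calls kept whichever 1 library was left out were Cyp1b1, Cyp2c23, Cyp2d22, Cyp3a13, Cyp4f16 and Cyp4f18. Without fructose liver replicate 2 of 5 months 8 members were called, without cornstarch liver replicate 2 of 5 months 10, without replicate 1 of that group 24 and without the 2 Xist libraries 25, of which 15 were among the 16.

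Between 5 and 9 months, averaged over the diets, limma called 3 members of 56 (1 higher, 2 lower), against 2.77% of all genes (0.768% higher, 2% lower). Ages without any overlap were found for 0 of the 56, against 1.6% of all genes. Cyp2c67 was higher at 9 months (log2 0.82, SE 0.18, limma adjusted p = 0.0412), and Cyp4f18 (log2 -1.85, SE 0.30, limma adjusted p = 0.0173) and Cyp3a13 (log2 -0.76, SE 0.18, limma adjusted p = 0.048) were lower. Cyp2c67 stood at 2413, 3814 and 3947 and 2522 and 2328 in cornstarch and fructose livers of 5 months, and at 5212, 6726 and 6700.1 and 5627, 3172 and 3731 at 9 months. None of the 3 was kept in every comparison with 1 library left out. Without fructose liver replicate 2 of 5 months limma called 0 members, and without the 2 Xist libraries, or without fructose liver replicate 1 of 5 months alone, it called 1, which was none of the 3. Neutrophil markers (7 of 7) and acute-phase genes (3 of 5) were also called lower at 9 months, and their part in the falls of Cyp4f18 and Cyp3a13 was not tested.

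Between the diets in tumours limma called 0 of 56 members, against 0% of all genes. The diets did not overlap for 11 members, against 23.4% of all genes. At an unadjusted p under 0.05 there were 10 members, edgeR called 0 and DESeq2 called 3, all lower under fructose. Cyp2u1 had the smallest p, with 42.6, 18.6 and 8.70 under fructose and 243 and 199.5 under cornstarch (log2 -3.45, SE 0.55, limma adjusted p = 0.156). Cyp2c23 was at 345, 439 and 601 against 3223 and 1121 (log2 -2.08, SE 0.44, limma adjusted p = 0.243), and Cyp2f2 had log2 -2.16 (SE 0.53). Neither the difference of the diet effect between ages nor that between tissues gave a call among the 56 members in limma. Between ages 8 members had an unadjusted p under 0.05 (edgeR 0 calls, DESeq2 2, against 0.698% of all genes, 0.00698% higher and 0.691% lower), led by Cyp2a5 (log2 4.10, SE 0.82, limma adjusted p = 0.058) and Cyp2c37 (log2 3.86, SE 0.87, limma adjusted p = 0.0901). Between tissues 5 had one (edgeR 0, DESeq2 0, against 0% of all genes), led by Cyp1b1 (log2 -2.87, SE 0.94, limma adjusted p = 1).

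The partner genes of the P450 system are read against 14.8% of all genes called at 5 months. Of 7 genes for electron supply and haem, limma called 1 (DESeq2 2), Hmox1, encoding haem oxygenase that breaks down haem, higher under fructose at 5 months. It was at 1122 and 1322 against 441, 311 and 425 (log2 1.65, SE 0.33, limma adjusted p = 0.0092). The other 6 did not pass, with log2 -0.17 (SE 0.57) for the reductase gene Por and -0.20 (SE 0.60) for Alas1, the first enzyme of haem synthesis. Of 14 tested regulator genes 1 passed (DESeq2 called 3), Tiparp, an AHR target that represses AHR, at 420.0 and 332 against 154, 167 and 189 (log2 1.14, SE 0.16, limma adjusted p = 0.00163). Of the AHR-responsive members, Cyp1a2 fell in the same livers and Cyp1a1 was at 4.38 and 4.57 against 3.82, 10.3 and 6.66. Cyp1b1 went the other way, at 32.1 and 29.7 against 23.9, 13.4 and 9.32, and did not pass (log2 1.05). The part of Tiparp in these levels was not tested. At 9 months limma and edgeR called 0 of the 7 and 0 of the 14 for diet. At an unadjusted p under 0.05 there were 1 and 2, and DESeq2 called 1 and 2.

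In tumours limma called 3 of 14 regulators, all lower, against 23.8% of all genes called and 10.5% called lower, edgeR called 1 and DESeq2 5. The 3 were Nr0b2, encoding the bile acid-induced repressor SHP (log2 -0.83, SE 0.25, limma adjusted p = 0.0331), the hepatocyte factor gene Cebpa (log2 -0.58, SE 0.17, limma adjusted p = 0.0313) and Stat5b, the transducer of growth hormone pulses (log2 -0.36, SE 0.12, limma adjusted p = 0.0491). Hnf4a, a main activator of hepatocyte genes, had log2 -0.03 (SE 0.18). Of the 7 electron and haem genes limma, edgeR and DESeq2 called 0 and none had an unadjusted p under 0.05, with Por at 7763 and 4236 in cornstarch tumours and 2122, 8864 and 11146 in fructose tumours against 3413 to 16177 in the livers.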

How the data were processed

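Per the labels' protocols, RNA was isolated with NucleoSpin columns and made into libraries with the Illumina TruSeq mRNA kit. The submitters' processing notes name FastQC, Trim Galore, STAR, RSEM, DESeq2 and GRCm38, with no versions. The table deposited by the authors holds a normalised signal per gene. How it was scaled was read from its values: with 1 factor per library, 100% of values above 0 gave whole reads (tolerance 0.01), and these were taken as the recovered reads. Depth was 11232461 to 38377674 reads.

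The main test was limma 3.58.1 (R 4.3.3, with trend) on log2(value + 1), for genes reaching 10 in 2 or more of the fitted libraries, with Benjamini-Hochberg adjustment over all genes and a threshold of 0.05. Fold changes are on that scale and understate those of low genes. The 11 liver libraries gave the diet and age comparisons, and the 11 libraries of 9 months the tumour comparisons. edgeR 4.0.16 (quasi-likelihood) and DESeq2 1.42.0 were run on the recovered reads as alternatives, beside other pseudocounts, no filter, quantile normalisation, other sets of libraries and each library left out. The tests were tested on simulated data. Members and lists were chosen with earlier results of these data known. Named genes were, in each comparison, the up to 6 called members per direction with the largest change, and the highest member of each subfamily and a fixed set of well-known P450 genes. Other genes given with values (such as Cyp2c40, Cyp2c68, Cyp2c69, Cyp4a31 and Cux2) and the promoter pairs were chosen after their values were seen. Exon lengths and coding sequences came from GENCODE mouse release 21 (98.95% of gene IDs matched), promoters from RefSeq (GRCm38.p6).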

Additional observations from a re-analysis of the deposited data

How the results depend on the processing

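No paired analysis was possible because the labels do not say which libraries share a mouse. The labels carry no replicate numbers, and those used here follow the order of the libraries within each group. The numbers of P450 genes called, with the value as reported first, changed by more than 1.5 times as follows. Without the low-value filter the 9-month diet count went from 2 to 1, and with quantile normalisation the age count went from 3 to 5. With a pseudocount of 8 the diet-by-age count went from 0 to 1. With DESeq2 the tumour diet count went from 0 to 3, the age count from 3 to 5 and the diet-by-age count from 0 to 2. In 1 fit of all 16 libraries the 5-month diet count was 9 (14), the 9-month count 1 (2), the count over both ages 9 (16) and the age count 1 (3). With only the groups compared the 9-month count was 0. Without the 2 Xist libraries the 9-month count was 0, the count over both ages 25, the age count 1 (0 of the 3 kept) and the diet-by-age count 2. With 1 library left out the counts ran from 0 to 17 (5-month diet), 0 to 3 (9-month diet), 8 to 24 (both ages), 0 to 1 (tumour diet), 17 to 36 (tumour against liver), 0 to 2 (age), 0 to 2 (diet by age) and 0 to 0 (diet by tissue). The tumour against liver count was 24 to 29 under the alternatives other than leaving out a library. The causes were not tested.

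For single genes the 1 change of sign was Cyp3a11 at 5 months without fructose liver replicate 2 (log2 0.12, against -2.79 without fructose liver replicate 1). Of the other single-gene values 1339 kept their side of the threshold, 239 lost a call and 15 gained one.

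Over all genes, the 5-month diet count of 2119 was 973 without the Xist libraries. The 9-month count of 363 was 221 with quantile normalisation, 969 with DESeq2, 0 with only the groups compared and 46 without the Xist libraries. The tumour diet count of 0 was 2 with a pseudocount of 0.25, 1 without the filter, 1 with quantile normalisation and 119 with DESeq2. The age count of 397 was 1081 with DESeq2 and 42 without the Xist libraries. The diet-by-age count of 100 was 21 with a pseudocount of 0.25, 203 with a pseudocount of 8, 46 with edgeR, 318 with DESeq2 and 37 without the Xist libraries. Groups of 2 or 3 libraries limit what can be called.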
